A study of Mus musculus with 3 samples.

Results

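Ubiquitin-conjugating (E2) enzymes were examined in RNA from the chromatin of mouse macrophages grown from bone marrow. The genes were taken by name, as those with a transcript annotated protein_coding and a symbol beginning with Ube2, and 1 gene that fits these terms was left out. This gave 36 genes, of 21901 genes with a protein-coding transcript and 55536 genes in all. The rule used no measured value. It also took in Ube2cbp, known as an E2-binding protein and not as an E2 enzyme, and the Ube2v genes, whose products resemble E2 enzymes but lack the catalytic cysteine. The 36 genes lay on 16 chromosomes.

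The 3 libraries formed 1 group. Ribosomal RNA had been removed, the strain was C57BL/6J, and the cells had been kept for 50 min in 100 ng/ml lipid A, the portion of lipopolysaccharide that Toll-like receptor 4 recognises. No genetic change was labelled, sex and age had not been collected, and untreated cells were not analysed here, so no level below can be called induced or repressed. Replicate 1 started from 1 µg of RNA, replicate 2 from 250 ng and replicate 3 from 500 ng. The labels number the libraries as biological replicates but give them the same donor code, so their spread may be technical. With a single group there was no comparison between conditions and no p-value was computed.

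E2 enzymes stand in the middle of the ubiquitin cascade. An E1 enzyme activates ubiquitin and passes it to the active-site cysteine of an E2, and an E3 ligase brings the loaded E2 to a substrate. The E2 often sets the kind of chain: Ube2n with a Ube2v partner makes Lys63-linked chains, which carry signals from Toll-like receptors through the ligase TRAF6, while other E2 enzymes make Lys48-linked chains that mark proteins for the proteasome. A few members carry ubiquitin-like proteins instead, such as Ube2m and Ube2f for NEDD8. RNA bound to chromatin holds much transcript that is still being made or spliced, so isoforms with introns are a usual part of such libraries.

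The libraries held 10496703, 17687379 and 14806118 expected counts in genes in replicates 1, 2 and 3, and the E2 genes took 0.292%, 0.151% and 0.176% of them. Ube2d3 alone gave 15079, 11178 and 11041 of these counts, the most of any E2 gene. Expected counts are estimated read counts that need not be whole, and TPM is the level per length of transcript, scaled to a fixed sum. Macrophage markers were present: 8 of 8 were detected, that is, had at least 10 expected counts in each library, with a median of 36.9 TPM. Of 27 markers of other cell types, 5 were detected (Cd4, Alas2, Itga2b, Kit and Zbtb46, between 0.597 and 2.21 TPM) and 8 were at 0 in every library, among them Cd3e, Ly6g and Hbb-bs. The 27 summed to between 10.3 and 11.1 TPM in each library, and none averaged 10 TPM. In bulk RNA, fewer cells of a type and less RNA per cell cannot be told apart.

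Much of the signal of the E2 genes was assigned to isoforms annotated retained_intron, which keep intron sequence and have no annotated protein. The sequences where such an isoform parts from its spliced counterpart are shown for 5 genes that the results below return to. Each sequence is from the GENCODE M21 transcripts (GRCm38, the same assembly as mm10), reads 5′ to 3′ on the gene's strand, and has the last 30 bases of the shared exon in lower case. The capitals mark the next 30 bases: intron in the retained isoform, the following exon in the spliced one. In each retained sequence the capitals open with the GT of the splice donor.
Ube2d3-203 (retained), chr3:135455220-135455279, plus strand: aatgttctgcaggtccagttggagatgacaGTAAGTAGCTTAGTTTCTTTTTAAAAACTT
Ube2d3-212 (spliced), chr3:135455220-135455375, plus strand: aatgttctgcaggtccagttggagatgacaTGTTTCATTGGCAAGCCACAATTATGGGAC
Ube2e1-203 (retained), chr14:18326350-18326409, minus strand: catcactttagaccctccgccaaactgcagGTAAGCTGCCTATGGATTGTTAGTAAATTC
Ube2e1-201 (spliced), chr14:18285239-18326409, minus strand: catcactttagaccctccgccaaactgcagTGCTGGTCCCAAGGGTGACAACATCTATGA
Ube2e2-204 (retained), chr14:18888236-18888295, minus strand: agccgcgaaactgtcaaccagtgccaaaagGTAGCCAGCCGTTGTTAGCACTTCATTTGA
Ube2e2-206 (spliced), chr14:18871515-18888295, minus strand: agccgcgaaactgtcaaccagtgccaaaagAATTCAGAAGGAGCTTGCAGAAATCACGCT
Ube2s-204 (retained), chr7:4810392-4810451, minus strand: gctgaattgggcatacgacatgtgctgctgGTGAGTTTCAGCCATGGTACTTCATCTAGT
Ube2s-201 (spliced), chr7:4808455-4810451, minus strand: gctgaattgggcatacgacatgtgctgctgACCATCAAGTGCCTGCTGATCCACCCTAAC
Ube2n-203 (retained), chr10:95541422-95541481, plus strand: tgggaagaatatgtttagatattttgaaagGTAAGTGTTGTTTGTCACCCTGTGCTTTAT
Ube2n-201 (spliced), chr10:95541422-95541667, plus strand: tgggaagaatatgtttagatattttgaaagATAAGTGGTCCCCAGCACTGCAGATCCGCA

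The introns at these junctions were 96 bases long in Ube2d3, 41111 in Ube2e1, 16721 in Ube2e2, 1937 in Ube2s and 186 in Ube2n. The retained isoforms were of 2 kinds. Ube2d3-203 is a single exon of 19300 bases that holds 3 of the 7 introns of Ube2d3-212 whole and 19048 bases of intron in all. Ube2e1-203 and Ube2e2-204 hold no whole intron of their spliced counterparts and instead run 2563 and 1899 bases into the introns.

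Most E2 genes were measured in these libraries, over a wide range of levels. Detection, by the limit of 10 counts, held for 29 of 36 E2 genes, against 44.1% of all protein-coding genes, and 13 of 36 averaged 10 TPM or more, against 15.0%. The median E2 gene stood at 8.19, 4.58 and 6.01 TPM in replicates 1, 2 and 3. With each gene averaged over the libraries the median was 6.63 TPM, against 0.23 TPM for all protein-coding genes. It was 18.1 TPM, against 1.22 TPM, in the second quantification, and 1.81 TPM, against 0.133 TPM, for protein-coding isoforms alone. The 5 genes from rank 6 to rank 10 lay between 16.1 and 21.6 TPM, and their order was within their spread.

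**Figure D1:**
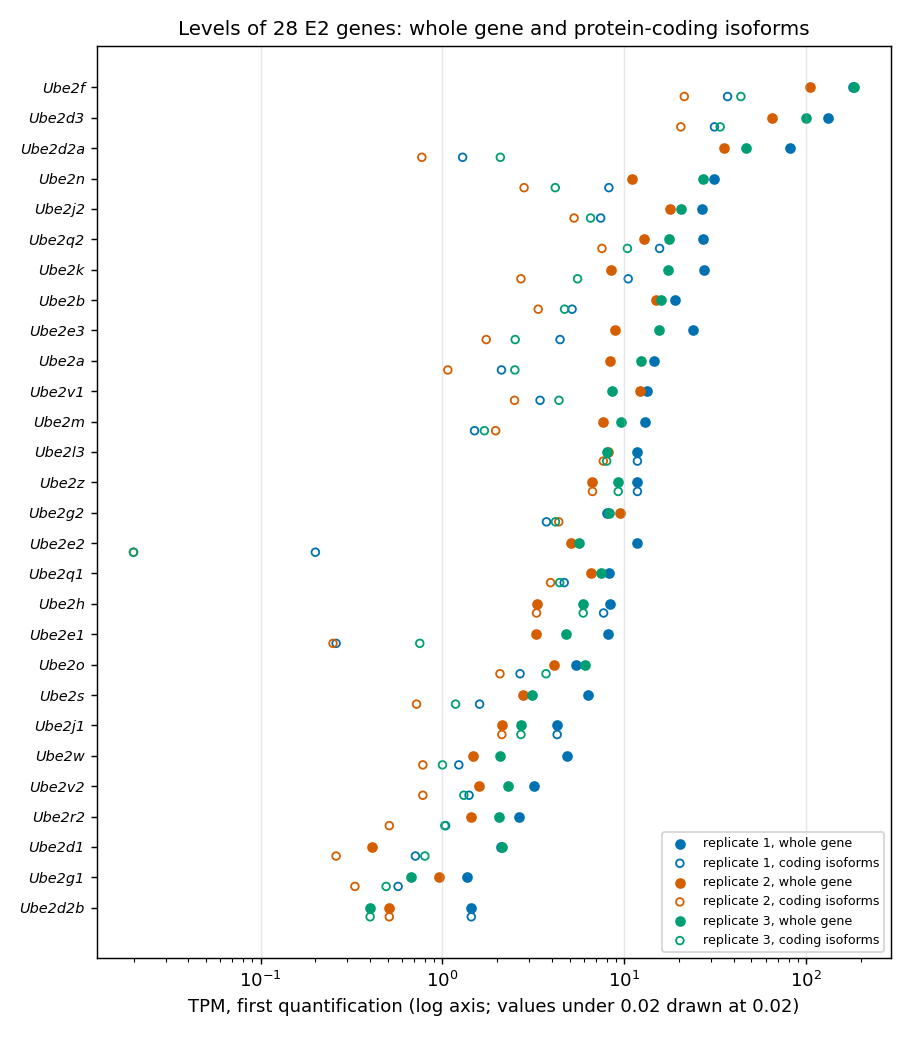
Level of 28 E2 genes with a mean of at least 10 expected counts, in each of the 3 libraries, in TPM on a log axis, for the whole gene (filled points) and for its protein-coding isoforms (open points), with genes from the highest to the lowest mean level. Ube2f and Ube2d3 lead for the whole gene, while the coding isoforms of Ube2d2a, Ube2e1 and Ube2e2 lie far to the left of their genes.

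The highest E2 gene was one for NEDD8. Ube2f, which loads NEDD8 onto the cullin of CUL5 ligases, had 180.4, 104 and 184 TPM in replicates 1, 2 and 3 (156 ± 45.05, SD, n = 3). Ube2m, the other NEDD8 enzyme, was lower, with 13.0, 7.63 and 9.56 TPM (10.1 ± 2.74). Replicate 2 was the lowest for both genes on the TPM scale.

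In both genes coding isoforms held the smaller share of TPM. Coding isoforms of Ube2f stood at 34.0 ± 11.5 TPM, 21.8% of the gene's TPM but 58.6% of its counts, and the rest was given to retained_intron isoforms of 520 to 1365 bases. Coding isoforms of Ube2m stood at 1.72 ± 0.231 TPM, 17.1% of TPM and 29.4% of counts.

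The D and E subfamilies hold E2 enzymes that work with many RING ligases and attach the first ubiquitin to a substrate. Of the 9 genes, 7 were detected. Ube2d3 was the second highest E2 gene, with 132, 64.5 and 100.0 TPM (98.9 ± 33.9), and the highest by expected counts, with 15079, 11178 and 11041. Ube2d2a, at rank 4, had 81.3, 35.4 and 46.7 TPM (54.5 ± 23.9). Ube2d1 was far lower, at 2.11, 0.41 and 2.13 TPM, on 33, 19 and 36 counts. Ube2d2b, a single-exon gene, had 1.44, 0.51 and 0.40 TPM on 28, 19 and 10 counts.

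The 3 E genes lay between the D genes. Ube2e3 had 23.9, 8.92 and 15.4 TPM (16.1 ± 7.53). Ube2e2 had 11.7, 5.06 and 5.64 TPM (7.48 ± 3.70), and Ube2e1 had 8.14, 3.27 and 4.75 TPM (5.39 ± 2.50). Ube2dnl1 and Ube2dnl2, which are named after Ube2d, had 0 counts in every library, and a count of 0 allows up to 3 counts in a library. In each of the 7 detected genes replicate 1 was the highest library after TMM scaling. Among all protein-coding genes with a mean of at least 10 counts that share was 32.9%. By TPM, replicate 3 was marginally above replicate 1 for Ube2d1.

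In the 6 detected D and E genes with both coding and other isoforms, the whole-gene level was mostly that of isoforms not annotated protein_coding. Ube2d2b has a coding isoform only. Ube2d3-203, the isoform whose sequence at the donor is shown above, held 87.6% of the gene's expected counts, and the spliced Ube2d3-212, of 8 exons, held 5.52%. Coding isoforms of Ube2d3 together stood at 28.5 ± 7.04 TPM, 28.8% of TPM and 7.78% of counts. For Ube2d2a the coding isoforms stood at 1.38 ± 0.660 TPM, 2.53% of the gene's TPM. Its rank among the E2 genes was 4 by the whole gene and 20 by coding isoforms, and 70.2% of its counts lay in Ube2d2a-206, a retained_intron isoform of 8159 bases.

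Ube2e1 and Ube2e2 were alike in this in the first quantification. Ube2e1-203, which reads on from the donor shown above, held 95.4% of the counts of Ube2e1, and coding isoforms stood at 0.42 ± 0.286 TPM. Ube2e2-204 held 93.8% of the counts of Ube2e2, and its coding isoforms were at 0.20, 0 and 0 TPM. In the second quantification Ube2e2 averaged 43.9 TPM, against 7.48 in the first, and stood above Ube2e3 (24.5 TPM). There Ube2e2-204 had 8.70 TPM, and the 328-base Ube2e2-210 had 24.1 TPM, against 0 in the first. Ube2e3 was more even, with 39.4% of counts in coding isoforms.

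**Figure D2:**
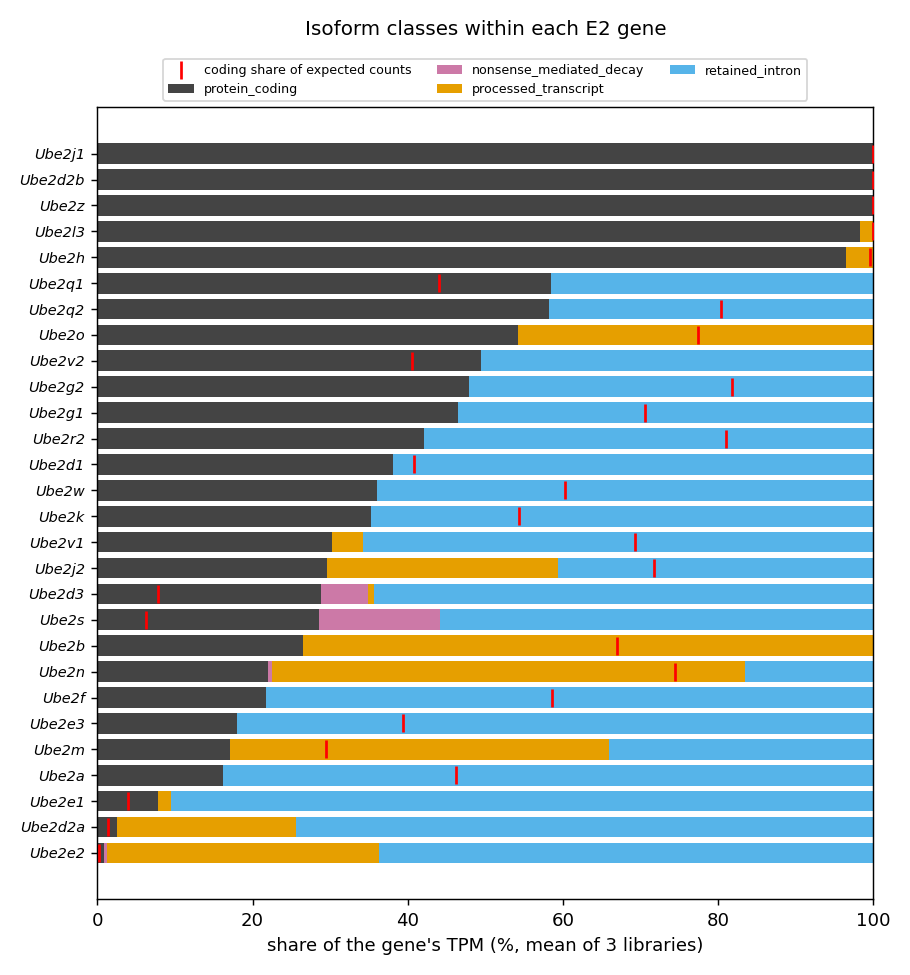
Share of the gene's TPM, for 28 E2 genes with a mean of at least 10 counts, assigned to the 4 annotated isoform classes (stacked bars, percent, mean of 3 libraries), with a red tick at the share of expected counts in protein-coding isoforms. Ube2e1, Ube2d2a and Ube2e2 have the smallest coding shares, down to 0.892% for Ube2e2, and the red ticks lie to the right of the dark bars in most other genes with mixed isoforms.

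Ube2n, the catalytic partner that makes Lys63-linked chains, had 31.2, 11.1 and 27.0 TPM (23.1 ± 10.6), at rank 5 of the E2 genes. Its partner Ube2v1 had 13.3, 12.1 and 8.54 TPM (11.3 ± 2.49), and Ube2v2, the partner known from DNA damage tolerance, had 3.17, 1.58 and 2.30 TPM (2.35 ± 0.796). In the first quantification the values of Ube2n overlapped those of Ube2v1, while Ube2v2 lay below both in every library. In the second quantification Ube2v2 averaged 21.2 TPM, against 17.4 for Ube2v1 and 34.4 for Ube2n. There Ube2v2 was above Ube2v1 in replicate 1 (36.6 against 19.0 TPM) and below it in replicates 2 and 3. Its coding isoforms averaged 19.1 TPM there, against 4.51 for Ube2v1 and 4.85 for Ube2n. By expected counts Ube2n differed from the D and E genes with mixed isoforms: 74.4% of its counts were in the spliced Ube2n-201 shown above and 7.42% in Ube2n-203. By TPM, a level per length, it did not differ: the coding share was 21.9%, within the range of those genes (0.892% for Ube2e2 to 38.1% for Ube2d1). The other isoforms of Ube2n were 330 to 1103 bases long, against 3867 for Ube2n-201. Of the bases of the leading isoform of Ube2v1, 92.2% also lay in exons of other annotated genes, so its level is uncertain.

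Ube2l3 encodes the E2 that serves HECT and RBR ligases, among them the linear ubiquitin assembly complex. It had 11.8, 8.14 and 8.0 TPM (9.32 ± 2.16), and 99.9% of its counts were in coding isoforms. Its leading isoform had 55.4% of its bases in exons of another gene, and 10 other genes held near-identical sequence (at least 95% identity over 100 bases).

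The E2 genes for Lys48-linked chains and for quality control at the endoplasmic reticulum were all detected, 6 of 6. Ube2j2, a membrane-bound enzyme of that quality control, had 26.7, 17.7 and 20.5 TPM (21.6 ± 4.58). Ube2k, which makes Lys48-linked chains, had 27.4, 8.43 and 17.3 TPM (17.7 ± 9.501). Ube2r2, which serves cullin-RING ligases, had 2.65, 1.44 and 2.04 TPM (2.04 ± 0.605). The other 3, Ube2g1, Ube2g2 and Ube2j1, averaged between 0.997 and 8.55 TPM. Ube2k was spread over several kinds of transcript, with 54.4% of counts in coding isoforms and 39.95% in the single-exon Ube2k-211.

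Ube2c and Ube2s are the E2 pair of the anaphase-promoting complex, in which Ube2c starts the chain and Ube2s extends it with Lys11 links. Ube2c was close to 0, with 8, 2 and 2 counts (0.58, 0.11 and 0.16 TPM). Ube2s had 6.34, 2.78 and 3.11 TPM (4.08 ± 1.97) on 194, 185 and 137 counts. Of those counts, 88.4% lay in the single-exon Ube2s-204 shown above and 6.28% in coding isoforms, which stood at 1.17 ± 0.440 TPM. Cdc20, an activator of the same complex in mitosis, was also low (0.143 ± 0.0379 TPM), while the complex's subunit gene Anapc1 had 25.8 ± 1.17 TPM. Of 23 replication and mitosis genes 16 were detected, with a median of 0.813 TPM and Mki67 the highest at 113 ± 20.97 TPM.

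Among the E2 genes of DNA damage and chromatin, Ube2a and Ube2b, which encode the 2 mouse relatives of yeast Rad6 that monoubiquitinate histone H2B, averaged 11.7 and 16.6 TPM. Coding isoforms held 16.1% of the TPM and 46.2% of the counts of Ube2a, and 26.5% and 67.0% of those of Ube2b. Ube2t, the E2 of the Fanconi anaemia pathway, had 9, 9 and 8 counts and missed the limit of 10. The remaining 9 genes ranged from 0 to 19.2 TPM. Ube2q2 was the highest of them, at 27.2, 12.9 and 17.7 TPM (19.2 ± 7.29), and Ube2ql1 and Ube2u had 0 counts in every library. Ube2z, an E2 charged by the E1 enzyme Uba6, stood at 9.24 ± 2.56 TPM, and every count was in coding isoforms. Ube2cbp had a single count, in replicate 2.

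In the median E2 gene with both kinds of isoform, coding isoforms held the smaller share of TPM, though not of expected counts. The median does not describe the pooled counts: Ube2d3, with the most counts, had 7.78% of them in coding isoforms. Of the 36 genes, 26 had both coding and other isoforms and a mean of at least 10 counts. Coding isoforms held under 50% of TPM in 20 of these 26, against 47.4% of 8523 protein-coding genes taken the same way. The median coding share was 32.8% of TPM, against 51.8% for all such genes. By expected counts 11 of 26 were under 50%, against 27.9%, and the median coding share was 59.4%, against 73.7% for all such genes. Short isoforms weigh less in counts than in TPM. A retained_intron isoform held the most counts of any isoform in 10 of 26 genes, against 19.5%.

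In the second quantification 20 of 26 genes were under 50% of TPM, against 59.2%. Both TPM estimates and the counts together placed 9 of 26 genes under 50%, against 23.5% of all such genes. They were Ube2a, Ube2d1, Ube2d2a, Ube2d3, Ube2e1, Ube2e2, Ube2e3, Ube2m and Ube2s. All 6 genes of the D and E subfamilies with both kinds of isoform were among them. The 9 were named after their values were seen.

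Coding isoforms therefore gave another order. Ube2q2 was rank 7 by the whole gene and 4 by coding isoforms. Ube2z was rank 15 by the whole gene and Ube2l3 rank 14, and by coding isoforms they were 5 and 6. Ube2e2 was rank 17 by the whole gene and 31 by coding isoforms. The Spearman correlation of the 2 orders was 0.856 over 36 genes, which share libraries and, in part, the same reads. Summed over the 36 genes, coding isoforms held 260 of 778 TPM in replicate 1, 164 of 429 TPM in replicate 2 and 239 of 628 TPM in replicate 3. All protein-coding genes together held 22.3%, 16.4% and 20.4% of TPM in replicates 1, 2 and 3, so their sum was also lowest in replicate 2.

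The E2 genes also differed between libraries, with replicate 1 the highest for most. After TMM scaling (which sets libraries to the bulk of their genes), 24 of 29 E2 genes with a mean of at least 10 counts lay above the mean of the libraries in replicate 1, against 42.2% of 10298 protein-coding genes. In replicate 2 it was 6 of 29, against 57.3%, and in replicate 3 it was 8 of 29, against 57.7%. Replicate 1 was the highest library for 22 of 29, against 32.9%, replicate 2 for 4 of 29, against 38.5%, and replicate 3 for 3 of 29, against 28.6%. The median E2 gene was 0.27 above the mean of the libraries in replicate 1 (log2 CPM, that is, counts per fixed number of reads), 0.17 below it in replicate 2 and 0.05 below it in replicate 3, against -0.07, 0.05 and 0.04 for all protein-coding genes. The value in replicate 1 depended on the quantification and the scaling: it was 0.116 over 31 E2 genes in the second quantification, against -0.042 for all protein-coding genes, and 0.489 with library totals, against 0.142.

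**Figure D3:**
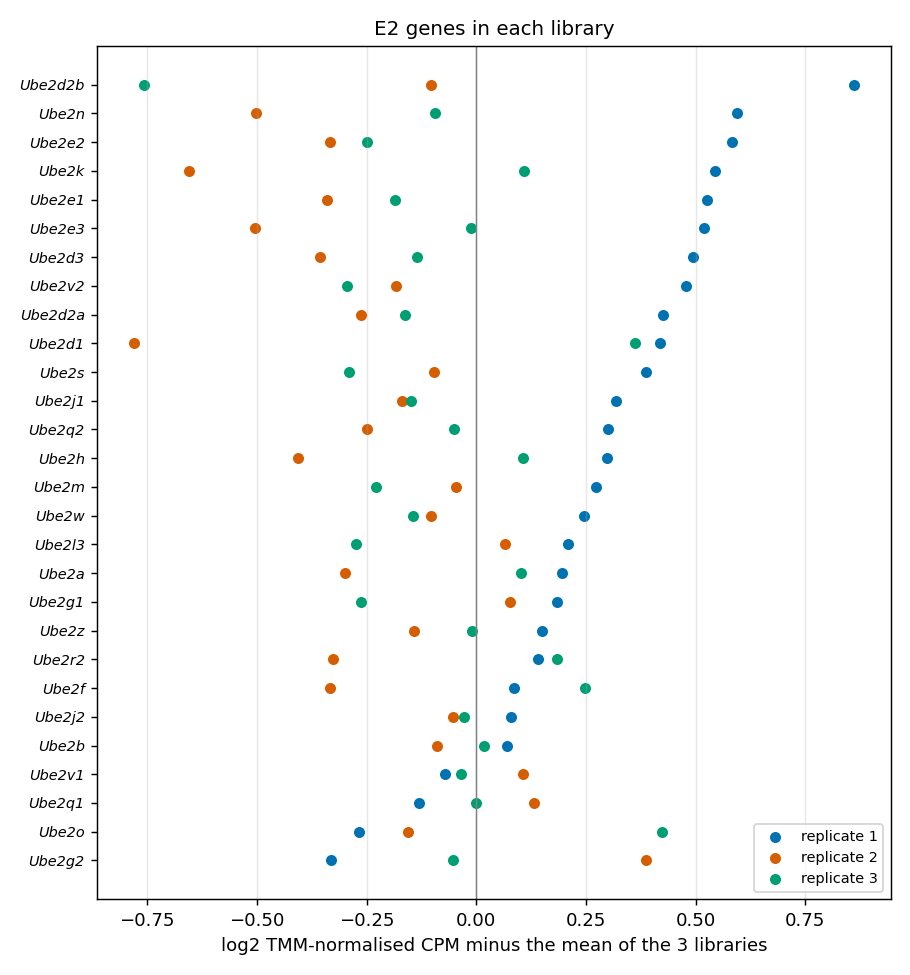
Log2 TMM-normalised CPM minus the mean of the 3 libraries for 28 E2 genes with a mean of at least 10 counts, one point per library, ordered by replicate 1. Replicate 1 lies to the right of 0 in 24 of these 28 genes, and Ube2g2, Ube2o, Ube2q1 and Ube2v1 are the 4 in which it lies to the left.

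The size of the differences was ordinary. The highest and lowest library were at least 1.5-fold apart for 14 of 29 E2 genes, against 48.4% of all protein-coding genes, and the median fold was 1.495, against 1.483. Between replicates 2 and 3 alone the count was 3 of 29, against 13.8% of all protein-coding genes, and the 3 were Ube2d1, Ube2d2b and Ube2k. It was 9 of 29, against 30.5%, without replicate 2 and 12 of 29, against 37.6%, without replicate 3. The 5 largest folds were those of Ube2d2b (3.08), Ube2d1 (2.30), Ube2k (2.29), Ube2n (2.14) and Ube2e3 (2.03), of which the first 2 rest on fewer than 40 counts in each library. Ube2k had 75.3, 32.8 and 55.8 CPM in replicates 1, 2 and 3, and Ube2n had 43.6, 20.4 and 27.0 CPM. Ube2j2 had the smallest fold, 1.10.

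Of the role groups, the D and E subfamilies lay farthest apart between libraries. All 7 detected genes were highest in replicate 1, against 32.9% of all protein-coding genes with a mean of at least 10 counts. All 7 were also at least 1.5-fold apart, against 48.4%. Their medians were 0.52, -0.34 and -0.16 (log2) in replicates 1, 2 and 3. The group was singled out by these values, and the 3 genes for Lys63-linked chains were close in replicate 1, with a median of 0.48. Ube2d3 had 1236, 686 and 799 CPM, and Ube2e1 had 20.9, 11.45 and 12.8 CPM. By TPM of coding isoforms alone, these genes did not share 1 highest library. Replicate 3 was highest for Ube2d3 (33.6 TPM, against 31.3 in replicate 1), Ube2d2a, Ube2d1 and Ube2e1. Replicate 1 was highest for Ube2d2b, Ube2e2 and Ube2e3. Over the whole family the direction held in part for coding transcript: counts of coding isoforms alone gave medians of 0.11, -0.16 and 0.04 over 27 E2 genes, against -0.15, 0.09 and 0.09 for all protein-coding genes. Counts of the other isoforms gave 0.42, -0.21 and -0.15 over 24 E2 genes, against 0.09, 0 and -0.06.

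Other measures moved with replicate 1. It had the most starting RNA, the fewest counts (10496703) and the largest TMM factor (1.16, against 0.922 and 0.933 for replicates 2 and 3), and 1.28% of its counts named no mouse gene, against 0.427% and 0.383%. The 8 macrophage markers had medians of -0.38, 0.33 and 0 (log2) in replicates 1, 2 and 3, and summed to 358, 408 and 418 TPM. Their part in the higher E2 counts of replicate 1 was not tested.

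The second quantification, a separate set of estimates per transcript from the same libraries, gave higher levels for most E2 genes. Of 29, 21 were more than 1.5-fold higher in it, against 57.3% of all protein-coding genes, and 0 were more than 1.5-fold lower, against 0.243%. The median ratio of second to first quantification was 1.82 (0.1 TPM added), against 1.61 for all genes. With coding isoforms alone, 12 of 29 were more than 1.5-fold higher, against 37.7%, and 0 were lower, against 2.11%.

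**Figure D4:**
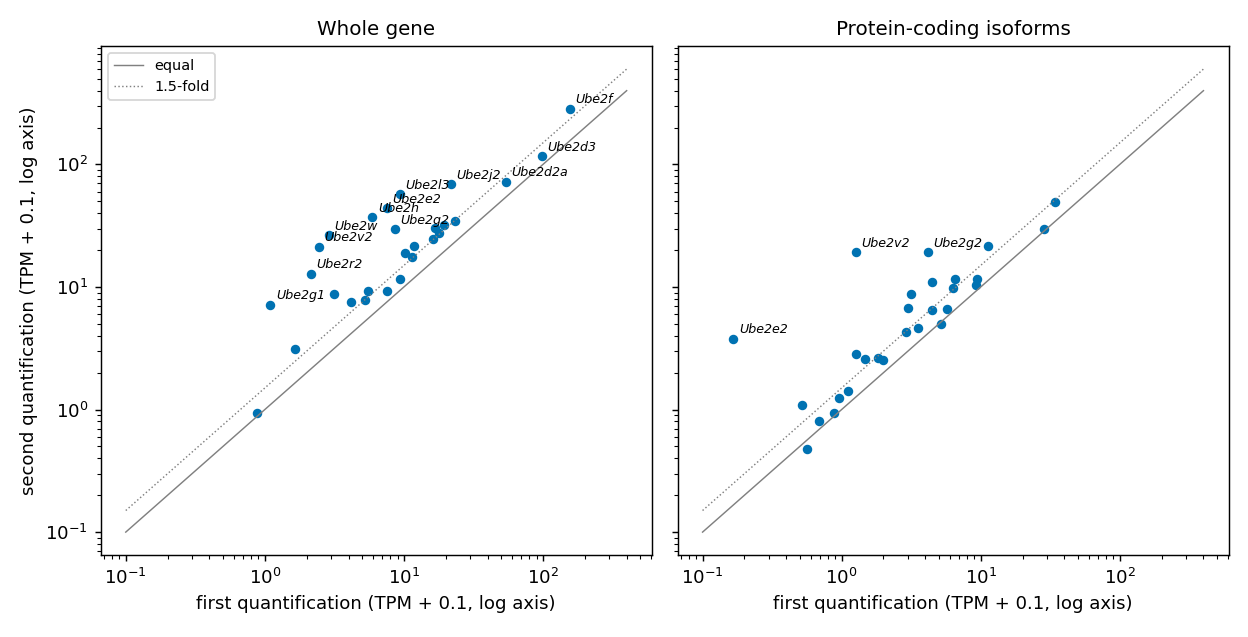
Mean TPM of 28 E2 genes in the second quantification (vertical) against the first (horizontal), with 0.1 TPM added and log axes, for whole genes on the left and protein-coding isoforms on the right. The solid line marks equal values and the dotted line 1.5-fold higher in the second, above which 21 of the whole genes and 12 of the coding values lie.

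The gaps were large in a few genes. Among genes with at least 10 counts, Ube2w stood at 26.3 TPM in the second quantification and 2.79 TPM in the first, Ube2v2 at 21.2 and 2.35 TPM, Ube2g1 at 7.07 and 0.997 TPM, and Ube2h at 36.8 and 5.84 TPM. Near the limit of 10 counts, 2 genes had larger ratios: Ube2c had 6.07 TPM in the second quantification and 0.283 TPM in the first, and Ube2t had 6.68 and 0.330 TPM. The values of Ube2c and Ube2t near 0 were thus those of the first quantification.

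A few short or intron-holding isoforms made up much of several of these gaps. Ube2l3 stood at 56.9 TPM in the second quantification and 9.32 TPM in the first, but its coding isoforms differed by 1.12-fold. The 298-base Ube2l3-202 had 29.3 TPM in the second quantification and 0.16 TPM in the first, and the 458-base Ube2l3-206 had 17.4 TPM in the second and was at 0 TPM in the first. For Ube2h, the non-coding Ube2h-203 and Ube2h-204 had 13.4 and 16.9 TPM in the second quantification, against 0 and 0.203 TPM in the first. For Ube2t the single-exon Ube2t-203 had 6.45 and 0.11 TPM. Ube2v2 was different, since its coding isoforms were 15.2-fold higher in the second quantification, where Ube2v2-204 had 12.1 TPM and Ube2v2-202 had 6.54 TPM, against 0 and 0.787 TPM in the first. Coding isoforms of Ube2e2 stood at 3.69 TPM in the second quantification and 0.0667 TPM in the first, so their near absence rests on the first.

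Other genes hardly moved. Among the lowest ratios were those of Ube2d2b (1.06), Ube2d3 (1.18) and Ube2q1 (1.23). By rank, Ube2f was 1, Ube2d3 was 2 and Ube2d2a was 4 in both quantifications. The level of Ube2f still differed, at 285 TPM in the second and 156 TPM in the first (ratio 1.82). Ube2d3-203 had 33.1 TPM in the second quantification and 34.1 TPM in the first, so the retained isoform of Ube2d3 did not depend on which was used.

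Around the E2 genes, the other steps of the cascade were detected almost throughout, against 44.1% of all protein-coding genes. All 9 E1 genes were detected, led by Atg7 (48.5 ± 9.69 TPM), which activates the autophagy proteins, and Uba7 (47.5 ± 6.74), which activates ISG15, with Sae1 of the SUMO pathway lowest (1.66 ± 0.410). All 7 E2-like genes outside the Ube2 names were detected, led by Birc6 (100.2 ± 6.63), a large hybrid E2 and E3, and Tsg101 (9.44 ± 1.78), with Atg10 lowest (1.37 ± 0.314). The 8 ubiquitin and ubiquitin-like genes were detected, among them Rps27a, which encodes ubiquitin fused to a ribosomal protein (22.5 ± 1.84), with Nedd8 lowest (2.79 ± 1.66).

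Ligase genes were detected in 12 of 12 cullin-RING subunits, 17 of 18 HECT and RBR ligases and 11 of 12 anaphase-promoting complex genes. Cul1 (23.3 ± 3.43 TPM) and Fbxw11 (22.5 ± 6.37) led the cullin-RING subunits, and Rnf7 (1.12 ± 0.475) was lowest. Huwe1 (175 ± 21.05) and Arih2 (165 ± 22.0) led the HECT and RBR ligases, and Nedd4 (0.08 ± 0.0854) was lowest. In replicate 1 the median shifts were -0.06 for E1 genes, -0.05 for cullin-RING subunits and -0.3 for HECT and RBR ligases. That of the 7 E2-like genes outside the Ube2 names was -0.04, against 0.27 for the E2 genes named Ube2. Of those 7 genes, 2 were highest in replicate 1, against 32.9% of all protein-coding genes with a mean of at least 10 counts.

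Some E2 levels rest on reads that other genes could share. Near-identical sequence in another gene was found for 14 of 36 E2 genes, with 5 such genes each for Ube2n and Ube2v1. The 10 for Ube2c matched over at most 155 bases. Another annotated gene overlapped 20 of the 36 genes, and the strand setting of the quantification was not given in the sources used here, so reads of the 2 strands may not have been told apart. Of the 6 genes with Ube2 names and no coding transcript, the pseudogene Ube2d-ps had 23, 29 and 28 counts, Ube2n-ps1 had 6.22 counts in replicate 1 and 0 in the others, and the other 4 had 0 in every library.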

How the data were processed

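Per the file headers, each library had a deposited gene table and a transcript table of expected counts and TPM, with interval bounds of TPM (a signal column whose level is not stated) that the authors also made. A further deposited table of estimated counts and TPM by transcript, again per the file headers, was summed per gene and is the second quantification named in the report. The deposited notes name mm10 as build and GENCODE M21 as gene models. Tools, their versions and whether strand was used are not given in the sources used here. Rows naming no mouse gene (1.28%, 0.427% and 0.383% of counts in replicates 1, 2 and 3) were left out.

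Gene-level values are the deposited ones, with mean and SD over 3 libraries. Isoform classes came from the deposited transcript identifiers, and shares are sums of TPM or counts. TMM factors were computed from rounded expected counts (edgeR 4.0.16, R 4.3.3), and DESeq2 1.42.0 gave size factors as an alternative. CPM had 0.5 added to each count. Folds between quantifications used TPM + 0.1. Counts of E2 genes are read against the same count over all protein-coding genes; no test was made, because there is 1 group. Near-identical sequence was found with blastn 2.17.0 between transcripts. Members, lists and comparisons were chosen with earlier results of these data known. Named genes are the 8 highest and 4 lowest by TPM, fixed role genes, the 5 largest folds between libraries, the 4 highest and lowest ratios between quantifications, the 4 lowest coding shares, and the 2 highest and the lowest of each other list; others are named after their values were seen. Alternatives were other thresholds, scalings, pseudocounts, quantification and leaving out each library; using coding isoforms alone was added after seeing the data. Depth gives counting error only, and the tables give no molecular identifiers. The values of a few genes on their own are not reported here, and they stay in the counts and medians.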

Additional observations from a re-analysis of the deposited data

How the results depend on the processing

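Of 81 values under other settings, 2 turned round and 14 moved by more than 1.5 times (counts of genes) or by more than the SD over libraries (medians). The other 65 kept their direction within those bounds, which are wide for the shifts between libraries: the shift in replicate 1 (0.273) ran from 0.112 with coding isoforms and 0.116 in the second quantification to 0.489 with library totals. Genes at or above 10 TPM numbered 13, and 21 at 5 TPM, 6 at 20 TPM, 21 in the second quantification and 4 with coding isoforms alone. The median level was 6.63 TPM, 18.1 in the second quantification and 1.81 for coding isoforms. The shift in replicate 2 (-0.17) was -0.439 with TPM and -0.05 without replicate 1. The shift in replicate 3 (-0.051) ran from -0.194 to 0.05 with 1 library left out, turning positive without replicate 1, and was 0.043 with coding isoforms. Genes at least 1.5-fold apart numbered 14, and 23 both with library totals and with TPM, and 3 to 12 with 1 library left out (3 without replicate 1, 9 without replicate 2). Genes higher in the second quantification numbered 21, and 12 with coding isoforms. The median coding share over members with at least 10 counts was 36.0% of TPM, 67.0% by counts and 25.4% in the second quantification. The cause was not tested. No paired analysis was possible because the libraries form a single group.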
